A study of Mus musculus with 10 samples.

Results

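Regulators of G protein signaling (RGS proteins), adenylyl cyclases and cyclic nucleotide phosphodiesterases set how strongly and for how long a cell answers its G protein-coupled receptors, and 43 genes whose symbols carry these names were compared between sorted embryonic brain populations. Members were chosen by gene symbol from the 14300 genes of the count table, and the measured values that entered this choice were the counts themselves, because the table holds only genes above 0.5 CPM (counts scaled to library size) in at least 5 of the 10 libraries. Of 56 annotated symbols, 13 (Rgs1, Rgs13, Rgs14, Rgs18, Rgs21, Rgs22, Adcy4, Adcy10, Pde4c, Pde6a, Pde6b, Pde6c and Pde8a) had no row and were not analysed here. The 43 with a row comprised 15 RGS genes, 8 adenylyl cyclases, 17 genes named as phosphodiesterases and 3 partners named after a family member they bind, namely the anchors Rgs7bp and Rgs9bp and the scaffold Pde4dip. The 17 include Pde6d, which is counted by its name although it is a chaperone and not a hydrolase. The families were picked with their difference between the populations already known, so the counts of members below describe them and are not offered as evidence about the families.

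A receptor that binds its ligand loads GTP onto a G protein alpha subunit, and RGS proteins shorten that signal by speeding the hydrolysis of the GTP. Alpha subunits of the stimulatory class switch on adenylyl cyclases, which make cAMP, and those of the inhibitory class restrain several of them. Phosphodiesterases break down cAMP, cGMP or both, and in young neurons these messengers steer axon growth, neuronal migration and activity-dependent wiring.

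Both populations came from embryos of Grem1creERT; Rosa26LSLTdtomato mice on the C57BL/6J background, whose dams received tamoxifen at E13.5, and the embryos were taken at E14.5, 24 h later. The inducible Cre follows Grem1 regulatory sequences, so TdTomato+ cells are those in which Cre was active under tamoxifen, with their progeny, and the TdTomato- cells are all other live cells of the dissociated tissue. The methods name the dorsal telencephalon freed of meninges, whereas the labels say only sorted brain cells. Each population gave 5 libraries, numbered by mouse from 2 to 6, and the labels do not say whether a number stands for a single embryo or a pooled litter.

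Depth was similar throughout, at 23429034 to 27286180 counts per library. Grem1 itself stood at 60.7 to 68.4 CPM in TdTomato+ libraries, against 5 to 7 CPM in the others. Deep layer neuron markers summed to 4315 to 5547 CPM in TdTomato+ against 1157 to 1592 CPM in TdTomato- libraries, with 4 of 5 higher in TdTomato+ cells. All 8 radial glia, 4 intermediate progenitor, 6 proliferation and 12 subpallial or striatal markers were lower in TdTomato+ cells, as were 9 of the 9 microglial and 3 of the 4 pericyte markers in the table. Of these, 7 microglial markers, the pericyte marker Cspg4 and the subpallial marker Gsx2 stayed under 0.5 CPM in every TdTomato+ library. They were thus in the table through their TdTomato- values and had to be lower. In such bulk samples, fewer cells of a type and less RNA per cell cannot be told apart.

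Across the 43 members, 28 were higher and 12 lower in TdTomato+ cells at an adjusted p of 0.05 or less (edgeR quasi-likelihood test with mouse as a block, Benjamini-Hochberg adjustment over all 14300 genes), beside 37.9% higher and 39.4% lower over all genes. With a log2 fold change of 2 or more in size also required, 9 were higher and 3 lower, beside 3.20% and 9.74% of all genes, and these include Rgs11, Pde11a and Adcy7, which exceeded the table's limit throughout only in the population where they were higher. The CPM of all 5 TdTomato+ libraries lay above all 5 TdTomato- libraries for 27 members and below them for 10, beside 29.1% and 32.4% of all genes. The median log2 fold change was 0.88 over the members and -0.01 over all genes. Scaling by library size alone moved the median of all genes to -0.18 and that of the members to 0.71, and it gave 4110 genes higher and 7123 lower where TMM factors gave 5424 and 5632.

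By family, 9 RGS genes were higher and 6 lower at the adjusted p threshold, with a median log2 fold change of 0.93. Among adenylyl cyclases 6 were higher, 1 was lower and 1 was not called, with a median of 0.83. Among phosphodiesterases 10 were higher, 5 were lower and 2 were not called, with a median of 0.77. The counts by family, and by subfamily below, stand beside the 37.9% of all genes that were higher and the 39.4% that were lower. Members of each family stood on both sides, and they are described by subfamily. Every library exceeded the table's limit of 0.5 CPM for 38 members, whereas Rgs11 and Pde11a exceeded it throughout in TdTomato+ cells only, and Adcy7, Pde7b and Rgs5 in TdTomato- cells only. CPM below are scaled by TMM factors, means are given ± SD over the 5 libraries of a population, and log2 fold changes (log2FC) are TdTomato+ over TdTomato- with their standard error (s.e.).

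**Figure D1:**
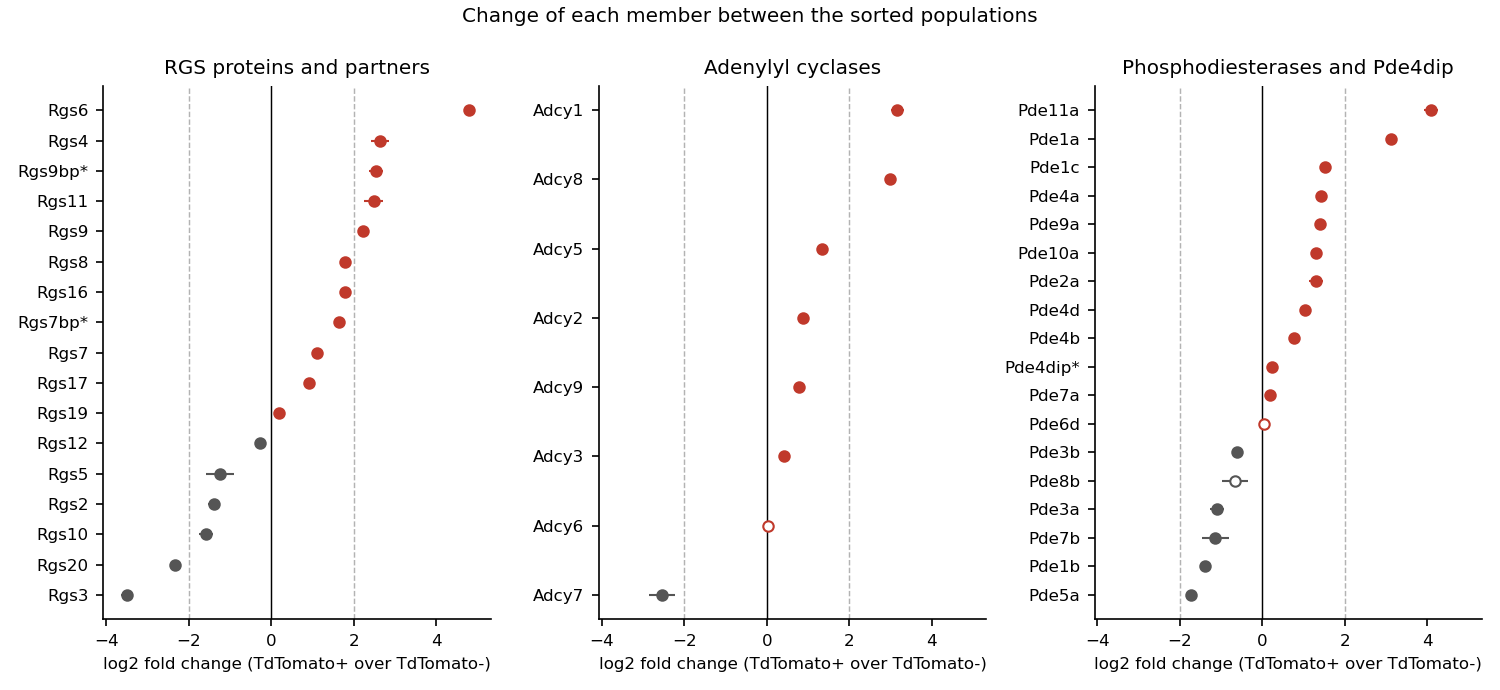
Log2FC of each of the 43 members, TdTomato+ over TdTomato-, with bars for the s.e., in 3 panels by family; open circles are members with an adjusted p above 0.05, dashed lines mark 2 and -2, and an asterisk marks partners. Rgs6 at 4.80 and Pde11a at 4.09 lie farthest to the right and Rgs3 at -3.50 farthest to the left, and each panel holds members on both sides of 0.

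The R7 subfamily, whose proteins need the beta subunit Gnb5 as a partner and act on inhibitory alpha subunits, was higher in TdTomato+ cells for Rgs6, Rgs7 and Rgs9, and for Rgs11, whose direction the table's limit fixed. Rgs6 (ENSMUSG00000021219, chr12:82588292-83162056 of GRCm38) was at 253, 242, 223, 241 and 272 CPM in the TdTomato+ libraries of mice 2 to 6 and at 10.3, 6.67, 7.06, 8.76 and 12 CPM in the TdTomato- libraries. Every TdTomato+ library was far above every TdTomato- library, and the TdTomato+ values varied little. Means were 246 ± 17.9 and 8.96 ± 2.23 CPM, 27.5-fold apart, with a log2FC of 4.80 (s.e. 0.10, adjusted p = 1.7e-09).

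Rgs9 (ENSMUSG00000020599, chr11:109225355-109298129), known from retinal photoreceptors and striatal neurons, was at 32.8, 20.6, 18.4, 25.2 and 28.8 CPM in TdTomato+ libraries and at 7.94, 4.42, 5.05, 4.83 and 4.56 CPM in TdTomato- libraries. The groups did not overlap, and mouse 2 was the highest in each of them. Its log2FC was 2.23 (s.e. 0.11, adjusted p = 1.6e-07). Rgs11 (ENSMUSG00000024186, chr17:26202951-26211324), best known from retinal bipolar cells, was at 2.54, 0.824, 1.77, 1.52 and 2.3 CPM in TdTomato+ and at 0.43, 0.207, 0.281, 0.357 and 0.279 CPM in TdTomato- libraries. These levels were low, and no TdTomato- library reached 0.5 CPM, so the gene could be in the table only through its TdTomato+ values and had to differ. Its log2FC was 2.49 (s.e. 0.23, adjusted p = 8.9e-06). Rgs7, the broadly neuronal member, was at 12.4 to 18.7 CPM against 5.92 to 7.58 CPM, a log2FC of 1.12.

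The partners that hold R7 proteins at membranes stood on the same side. Rgs7bp, the palmitoylated anchor of neuronal R7 complexes, was at 21.5 to 33.1 CPM in TdTomato+ against 7.26 to 9.83 CPM in TdTomato- libraries, a log2FC of 1.64. Rgs9bp (ENSMUSG00000056043, chr7:35578993-35585582), the anchor known from photoreceptors, was at 6.44, 6.64, 7.28, 5.83 and 4.97 CPM in TdTomato+ and at 0.626, 1.35, 1.24, 1.07 and 1.01 CPM in TdTomato- libraries. The groups did not overlap, and the log2FC was 2.55 (s.e. 0.17, adjusted p = 1.1e-06). Gnb5, the beta subunit that stabilizes R7 proteins, was higher by a smaller step, 26.8 ± 1.37 against 19.5 ± 1.4 CPM, with a log2FC of 0.46 (s.e. 0.06, adjusted p = 7.4e-05).

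The R4 subfamily, small RGS proteins that act on inhibitory and Gq-class alpha subunits, was divided, with 3 genes higher and 3 lower. Of these 6 genes, 5 lie on chromosome 1. Rgs8 and Rgs16 are neighbors on the same strand with 40 kb between them, and Rgs5 and Rgs4 are neighbors on opposite strands with 45.7 kb between them. The 250 bases before a RefSeq start site of these genes (GRCm38.p6) are shown on each gene's own strand, because neighbors moved together in the Rgs8 and Rgs16 pair and apart in the Rgs5 and Rgs4 pair. Capitals mark TGACG on either strand (read CGTCA on the other), the core of the cAMP response element that CREB binds. For Rgs8, which has 3 windows in RefSeq, the most upstream is given, and its other windows held no TGACG on either strand.
Rgs16, chr1:153740103-153740352, plus strand: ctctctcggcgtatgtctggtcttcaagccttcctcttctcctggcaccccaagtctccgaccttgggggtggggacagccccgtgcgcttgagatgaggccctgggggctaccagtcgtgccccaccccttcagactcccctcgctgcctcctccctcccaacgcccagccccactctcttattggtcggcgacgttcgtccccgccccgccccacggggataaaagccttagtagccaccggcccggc
Rgs8, chr1:153652787-153653036, plus strand: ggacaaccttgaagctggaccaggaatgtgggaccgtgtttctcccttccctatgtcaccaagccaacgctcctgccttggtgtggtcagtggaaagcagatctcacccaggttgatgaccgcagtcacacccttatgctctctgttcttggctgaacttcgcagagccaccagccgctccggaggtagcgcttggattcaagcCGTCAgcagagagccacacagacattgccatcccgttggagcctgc
Rgs4, chr1:169747643-169747892, minus strand: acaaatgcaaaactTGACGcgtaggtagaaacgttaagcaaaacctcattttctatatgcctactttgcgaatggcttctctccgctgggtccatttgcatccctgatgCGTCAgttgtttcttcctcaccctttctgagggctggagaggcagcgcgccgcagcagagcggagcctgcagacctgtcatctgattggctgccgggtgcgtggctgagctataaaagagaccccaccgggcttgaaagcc
Rgs5, chr1:169655251-169655500, plus strand: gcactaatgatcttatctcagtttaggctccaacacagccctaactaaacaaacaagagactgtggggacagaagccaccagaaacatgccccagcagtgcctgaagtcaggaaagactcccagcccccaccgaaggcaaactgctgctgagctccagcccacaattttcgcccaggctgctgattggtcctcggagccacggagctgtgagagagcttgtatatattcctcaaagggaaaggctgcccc
Rgs2, chr1:144004150-144004399, minus strand: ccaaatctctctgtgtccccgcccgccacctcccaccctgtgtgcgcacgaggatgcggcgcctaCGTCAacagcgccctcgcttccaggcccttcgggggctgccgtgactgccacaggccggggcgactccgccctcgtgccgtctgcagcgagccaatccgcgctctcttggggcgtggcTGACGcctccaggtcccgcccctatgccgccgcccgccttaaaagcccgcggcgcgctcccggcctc

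The core occurred 2 times before Rgs4 and 2 times before Rgs2, and its part in the changes of these genes was not tested. RefSeq windows of this length were available for 34 of the 43 members, 65 windows in all. TGACG was in 10 of these (15.4%), each of a different member, beside 17.8% of 32851 windows of all genes. The full palindrome TGACGTCA was in 0 of the 65 windows and in 1.55% of all windows. A match is a description of letters and says nothing of binding.

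Rgs4 (ENSMUSG00000038530, chr1:169741477-169747642), an inhibitor of Gq and inhibitory signals in cortical neurons, was at 57.6, 28.1, 15.9, 45.3 and 31.9 CPM in TdTomato+ and at 5.55, 4.91, 5.33, 5.94 and 5.12 CPM in TdTomato- libraries. The TdTomato- values were almost level while the TdTomato+ values ranged widely, with mouse 4 lowest, and the groups did not overlap. The log2FC was 2.64 (s.e. 0.21, adjusted p = 3.0e-06). Rgs8, at 164 to 209 CPM against 40.5 to 68.7 CPM, and its neighbor Rgs16, at 91 to 166 CPM against 31.5 to 39.3 CPM, each had a log2FC of 1.79, just short of the threshold of 2. The adjusted p of Rgs16, which had the highest level per length of all RGS genes in TdTomato+ cells, was 8.4e-07 (s.e. 0.12).

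Rgs3 (ENSMUSG00000059810, chr4:62559847-62704001), an R4 member that also has long PDZ-containing isoforms, was at 2.77, 3.17, 4.24, 3.61 and 2.03 CPM in TdTomato+ and at 39.1, 35.4, 32.6, 37.2 and 34.4 CPM in TdTomato- libraries. Every TdTomato+ library was far below every TdTomato- library. The means were 11.3-fold apart, with a log2FC of -3.50 (s.e. 0.14, adjusted p = 3.7e-08). Rgs2, which prefers Gq and is an immediate early gene in neurons, was at 8.41 to 19.3 CPM against 31.6 to 43.7 CPM, a log2FC of -1.39. Rgs5, a pericyte marker, was at 0.907, 0.954, 0.265, 1.04 and 0.452 CPM against 0.977, 1.87, 1.84, 1.86 and 1.99 CPM, and the groups overlapped through mouse 2 of the TdTomato- group. Its log2FC was -1.25 (s.e. 0.34, adjusted p = 0.008). Only 3 TdTomato+ libraries exceeded 0.5 CPM for Rgs5, and the 4 pericyte markers summed to 5.3 to 6.91 CPM in TdTomato+ against 93.2 to 111 CPM in TdTomato- libraries, with 3 of 4 lower. Notch3, which other cells also express, made up most of that sum, at 79.8 to 100 CPM in TdTomato- libraries, and Pdgfrb was at 0.391 to 1.08 CPM against 6.78 to 13.1 CPM. Their part in the value of Rgs5 was not tested.

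The RZ subfamily, which acts on the Gz alpha subunit among others, was also divided. Rgs20 (ENSMUSG00000002459, chr1:4909576-5070285) was at 2.49, 3.3, 2.65, 3.87 and 3.03 CPM in TdTomato+ and at 16.4, 14.8, 14.5, 17.4 and 13.6 CPM in TdTomato- libraries. The groups were far apart, with a log2FC of -2.32 (s.e. 0.11, adjusted p = 1.0e-07). Rgs17 was at 17.2 to 24.3 CPM against 8.01 to 13.6 CPM, a log2FC of 0.93. Rgs19 was at 17.4 to 22.6 CPM against 15.9 to 19.2 CPM, and although each mouse had the higher value in its TdTomato+ library the groups overlapped. Its log2FC of 0.20 (s.e. 0.07) had an adjusted p of 0.03, which became 0.094 without mouse 2, 0.097 without mouse 5, 0.062 with no replicate block, and with library size alone as scaling the log2FC was 0.02 (adjusted p = 0.82).

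Both R12 genes in the table were lower in TdTomato+ cells. Rgs12, a large RGS protein with several signaling domains, was at 141 to 150 CPM against 168 to 180 CPM, a small step with no overlap (log2FC -0.27, s.e. 0.04, adjusted p = 9.6e-05). It had the highest level per length of the RGS genes in TdTomato- cells. Rgs10, which is abundant in microglia and also found in neurons, was at 0.994 to 1.54 CPM against 2.87 to 4.09 CPM, a log2FC of -1.57. The 9 microglial markers in the table summed to 7.55 to 10.3 CPM in TdTomato+ against 22.9 to 94.1 CPM in TdTomato- libraries, and C1qa, C1qb and C1qc, whose direction the table's limit fixed, lay between 0 and 0.136 CPM in TdTomato+ libraries. Across the TdTomato- libraries this sum was lowest in mice 3 and 4, at 22.9 and 30.9 CPM, of which mouse 3 had the lowest Rgs10 (2.87 CPM) and mouse 4 the highest (4.09 CPM). The part of microglia in the value of Rgs10 was not tested.

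**Figure D2:**
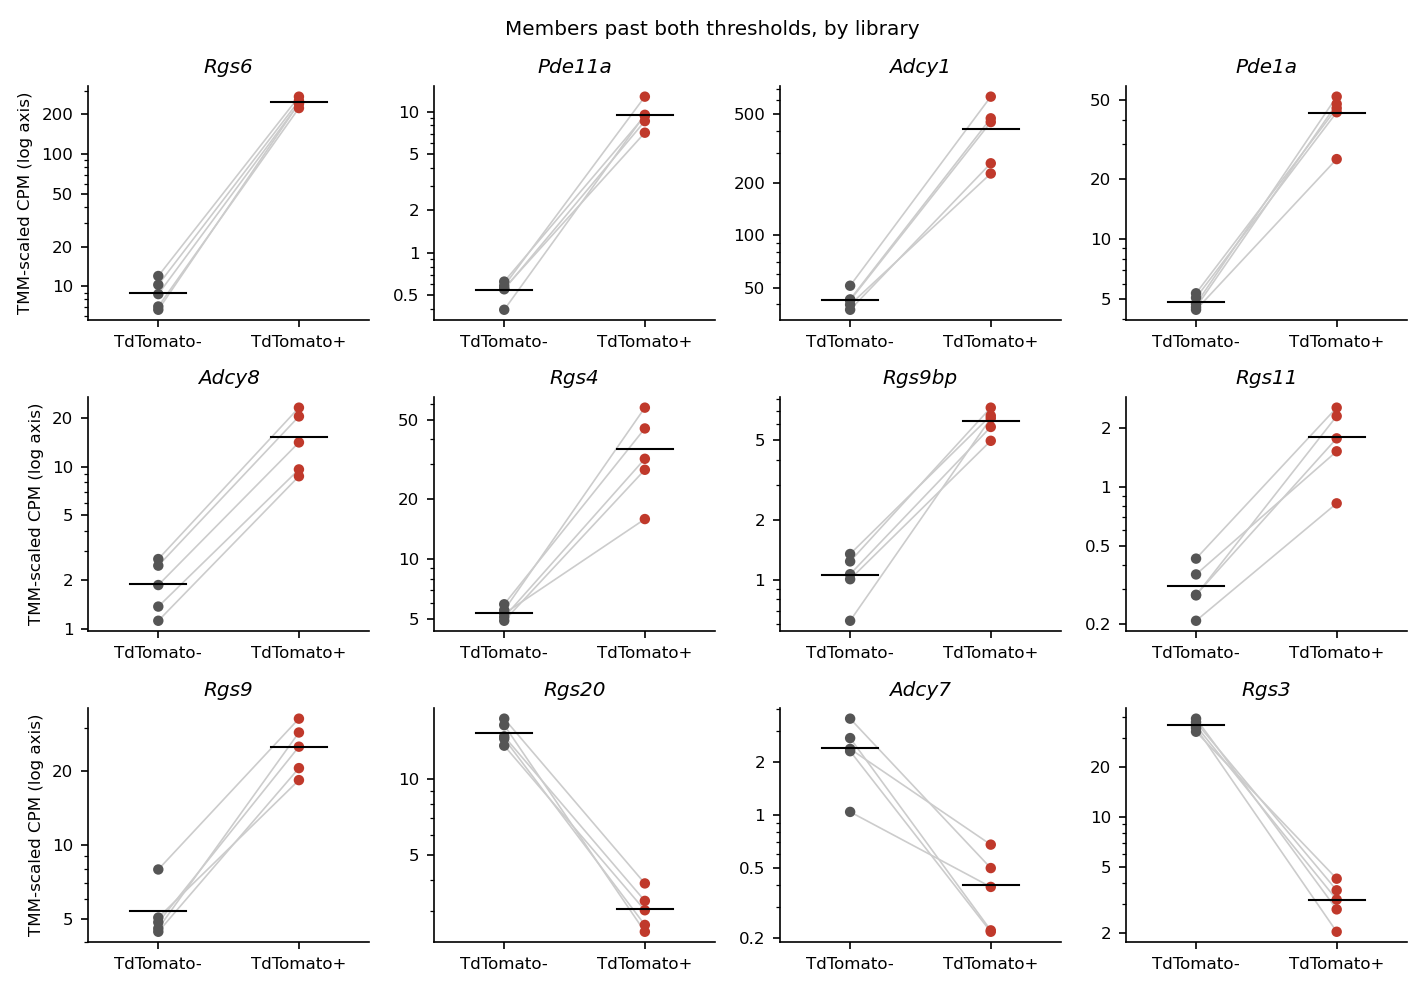
TMM-scaled CPM on log axes for the 12 members past both thresholds, with a point per library, grey lines joining the libraries of a mouse and black bars at the group means. The populations are separate in every panel, 9 members are higher and 3 lower in TdTomato+ cells, and the TdTomato+ points of Adcy1, Adcy8, Rgs4 and Rgs11 spread more than those of Rgs6.

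Of the adenylyl cyclases, Adcy1 and Adcy8, which calcium and calmodulin switch on, differed most, and Adcy3, which is grouped with them, differed little. Adcy1 (ENSMUSG00000020431, chr11:7063489-7178506), the neuronal cyclase needed for the barrel map in the cortex, was at 629, 260, 227, 472 and 449 CPM in TdTomato+ and at 51.3, 37.3, 39.9, 42.8 and 42.3 CPM in TdTomato- libraries. All TdTomato+ values were well above all TdTomato- values, and mice 3 and 4 were the lowest in both populations. The means of 407 ± 165 and 42.7 ± 5.27 CPM were 9.54-fold apart, with a log2FC of 3.17 (s.e. 0.16, adjusted p = 1.5e-07).

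Adcy8 (ENSMUSG00000022376, chr15:64697084-64922296), the other strongly calcium-stimulated neuronal isoform, was at 9.61, 20.4, 23.1, 14.1 and 8.72 CPM in TdTomato+ and at 1.37, 2.45, 2.69, 1.86 and 1.12 CPM in TdTomato- libraries. Here mice 3 and 4 were the highest in both populations, the reverse of Adcy1, and the groups did not overlap. The log2FC was 2.98 (s.e. 0.10, adjusted p = 1.1e-08), and the mice stood in the same order in both populations. Adcy3, the cyclase of primary cilia and olfactory neurons, was at 27 to 35.6 CPM against 20.9 to 25.9 CPM, a log2FC of 0.41, and 22.1% of its exonic bases overlap Cenpo on the opposite strand.

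The calcium-inhibited isoforms differed from each other. Adcy5, the main cyclase of the striatum, was at 106 to 126 CPM against 39.6 to 49.4 CPM, a log2FC of 1.35. Adcy6 was at 106, 68.2, 74.7, 86.8 and 98.4 CPM in TdTomato+ and at 102, 75.3, 77.8, 81.4 and 87.6 CPM in TdTomato- libraries. The ranges overlapped almost wholly, and the libraries of a mouse lay close together. Its log2FC was 0.02 (s.e. 0.05, adjusted p = 0.70), and with library size alone as scaling it was -0.15 (adjusted p = 0.024), a move no larger than the shift of all genes.

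The isoforms that G protein beta-gamma dimers stimulate were on opposite sides. Adcy2 was at 14.7 to 17.4 CPM against 7.35 to 9.55 CPM, a log2FC of 0.88. Adcy7 (ENSMUSG00000031659, chr8:88272403-88329962), known from immune cells and platelets, was at 0.499, 0.39, 0.221, 0.217 and 0.678 CPM in TdTomato+ and at 3.52, 1.04, 2.73, 2.3 and 2.37 CPM in TdTomato- libraries. The groups did not overlap, but 1 TdTomato+ library exceeded 0.5 CPM, so the gene was in the table through its TdTomato- values. Its log2FC was -2.54 (s.e. 0.32, adjusted p = 6.8e-05). Of the TdTomato- libraries with the lowest microglial sums, mouse 3 had the lowest Adcy7 (1.04 CPM) and mouse 4 a value above those of mice 5 and 6 (2.73 CPM), and the part of microglia in it was not tested. Adcy9, the forskolin-insensitive isoform, was at 14.8 to 18.4 CPM against 8.62 to 11.3 CPM, a log2FC of 0.78.

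The phosphodiesterases that calmodulin activates, which hydrolyze both cAMP and cGMP, were divided. Pde1a (ENSMUSG00000059173, chr2:79834453-80129458), which prefers cGMP, was at 45.6, 52.1, 43.5, 47.9 and 25.3 CPM in TdTomato+ and at 5.36, 4.73, 5.09, 4.56 and 4.43 CPM in TdTomato- libraries. Mouse 6 was well below the other TdTomato+ libraries and still above every TdTomato- library. The log2FC was 3.12 (s.e. 0.13, adjusted p = 3.6e-08). Pde1c was at 51.1 to 106 CPM against 21 to 30.1 CPM, a log2FC of 1.52. Pde1b, which marks striatal neurons, was lower, at 30.1 to 40.9 CPM against 71.1 to 107 CPM, a log2FC of -1.38.

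Among the other enzymes that accept both nucleotides, Pde11a (ENSMUSG00000075270, chr2:75989141-76338774), known in the adult brain from the ventral hippocampus, was at 12.8, 8.59, 7.11, 9.52 and 9.36 CPM in TdTomato+ and at 0.586, 0.553, 0.561, 0.396 and 0.627 CPM in TdTomato- libraries. The groups were far apart, and the TdTomato- values lay about the limit of the table. The means were 17.4-fold apart, with a log2FC of 4.09 (s.e. 0.16, adjusted p = 3.5e-08). Pde10a, the striatal enzyme, was at 198 to 223 CPM against 77.4 to 92.7 CPM, a log2FC of 1.30. Pde2a, which cGMP stimulates, was at 2.38 to 3.7 CPM against 0.836 to 1.62 CPM, a log2FC of 1.29, but 64.3% of its exonic bases are shared with another annotated gene on the same strand, so its counts are uncertain. The enzymes that cGMP inhibits were both lower, Pde3a at 1.72 to 4.5 CPM against 5.92 to 8.78 CPM (log2FC -1.10, s.e. 0.16, adjusted p = 1.6e-04) and Pde3b at 16.2 to 20.7 CPM against 25.4 to 29.1 CPM (log2FC -0.61).

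The cAMP-specific PDE4 enzymes, which are tethered to receptors and scaffolds, were higher in 3 of 3 genes in the table. Pde4a was at 69.5 to 88.7 CPM against 27.1 to 31 CPM, a log2FC of 1.41. Pde4d was at 78 to 93 CPM against 38.6 to 44.3 CPM, and Pde4b at 39.7 to 49.4 CPM against 20.7 to 30 CPM, with log2FCs of 1.04 and 0.77. The scaffold Pde4dip, which binds PDE4D at the centrosome and Golgi, was at 245 to 265 CPM against 191 to 238 CPM, a log2FC of 0.24 that was 0.06 (adjusted p = 0.3) with library size alone as scaling.

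The PDE7 and PDE8 enzymes, also specific for cAMP, showed small or unsteady differences. Pde7a was at 141 to 153 CPM against 121 to 139 CPM, a log2FC of 0.18 that was 0.01 (adjusted p = 0.88) with library size alone as scaling. Pde7b was at 3.17, 0.477, 1.1, 2.74 and 2.94 CPM in TdTomato+ and at 4.69, 3.11, 4.81, 5.98 and 2.89 CPM in TdTomato- libraries. It had the widest spread of any member, its groups overlapped, and mouse 6 alone was higher in its TdTomato+ library. The log2FC was -1.14 (s.e. 0.33, adjusted p = 0.012). For Pde8b, at 0.635 to 1.59 CPM against 1.14 to 2.5 CPM, the log2FC was -0.66 (s.e. 0.32, adjusted p = 0.086). It ran from -0.85 to -0.35 with each mouse left out, and it was -0.83 (adjusted p = 0.04) with library size alone as scaling.

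The cGMP-specific enzymes were on opposite sides. Pde9a, which has the highest affinity for cGMP of the family, was at 127, 114, 125, 117 and 134 CPM in TdTomato+ and at 45.5, 44.6, 45.7, 48.2 and 49.9 CPM in TdTomato- libraries. Both groups were tight and did not overlap, and the log2FC was 1.40 (s.e. 0.05, adjusted p = 1.1e-08). Pde5a was at 7.25 to 10.6 CPM against 29 to 35 CPM, a log2FC of -1.72. Pde6d, a prenyl-binding chaperone that is not itself a hydrolase, was at 36.6 to 40.3 CPM against 34.5 to 41.1 CPM, a log2FC of 0.05 (s.e. 0.06, adjusted p = 0.47), and -0.13 (adjusted p = 0.062) with library size alone as scaling.

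Levels of different genes were compared per length, as RPKM from the summed exonic length of each gene, and each member's share of its family's summed RPKM was taken per library. The RGS genes summed to 150 ± 9.62 RPKM in TdTomato+ and 74.4 ± 3.88 RPKM in TdTomato- cells, and the make-up of the sum differed. Rgs16 held 35.9 ± 6.3% in TdTomato+ cells, followed by Rgs6 with 16.5 ± 1.67%. In TdTomato- cells Rgs12 held 27.8 ± 1.08% and Rgs16 20.7 ± 1.02%, while Rgs6 held 1.21 ± 0.331%. Rgs2 held 2.56 ± 0.801% in TdTomato+ and 13.2 ± 1.12% in TdTomato- cells.

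Adenylyl cyclases summed to 75.7 ± 14.9 RPKM in TdTomato+ and 30.7 ± 2.66 RPKM in TdTomato- cells. Adcy1 held 41.5 ± 9.43% of the former and 11.1 ± 0.533% of the latter, and Adcy6 held 17 ± 1.11% of the former and 40.7 ± 1.94% of the latter. Adcy5 had much the same share in both, 22.3 ± 4.75% and 21 ± 0.97%. The level of Adcy6 itself did not pass the test, while the sum of the family was larger in TdTomato+ cells.

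Genes named as phosphodiesterases summed to 133 ± 2.03 RPKM in TdTomato+ and 90.2 ± 3.17 RPKM in TdTomato- cells, a ratio of 1.48. The sum includes the chaperone Pde6d, at 17.9 RPKM in TdTomato+ and 17.4 RPKM in TdTomato- cells. Pde9a held 26.2 ± 1.48% in TdTomato+ and 14.7 ± 0.463% in TdTomato- cells. The shares of Pde7a (14.3 ± 0.356% and 18.6 ± 1.53%) and Pde6d (13.5 ± 0.374% and 19.3 ± 1.14%) were lower in TdTomato+ cells. Pde1b held 4.79 ± 0.567% in TdTomato+ and 18.4 ± 2.14% in TdTomato- cells. With CPM in place of RPKM, which favors long transcripts, Rgs6 held 29.5% and Rgs16 15.1% of the RGS sum in TdTomato+ cells, so their order turned with the scaling for length. The order of phosphodiesterases turned too. By CPM Pde10a held 22.9%, Pde7a 15.9% and Pde9a 13.3% in TdTomato+ cells, and Pde6d held 6.4% in TdTomato- cells. In TdTomato- cells, Rgs12 held 42.8% of the RGS sum by CPM, Rgs8 12.6%, Rgs16 8.77% and Rgs6 2.19%. Adcy1 held 57% of the adenylyl cyclase sum by CPM in TdTomato+ and 19.4% in TdTomato- cells.

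**Figure D3:**
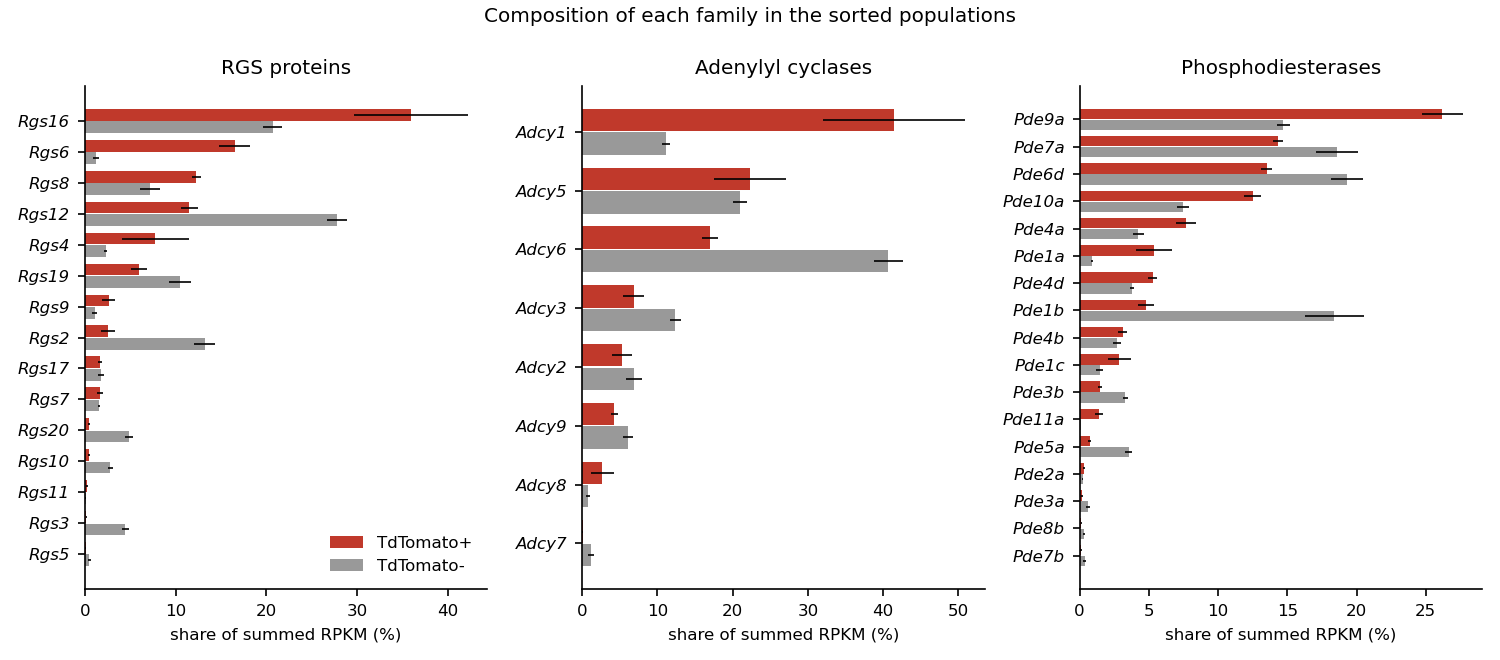
Share of each member in the summed RPKM of its family, in percent, with bars for the mean and lines for the SD over 5 libraries, TdTomato+ in red and TdTomato- in grey. Rgs16, Adcy1 and Pde9a hold the longest TdTomato+ bars, at 35.9%, 41.5% and 26.2%, while Rgs12, Adcy6 and Pde6d hold the longest TdTomato- bars.

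Several members varied between mice within a population. An SD above 0.5 of the log2 CPM was seen for 9 of the 43 members in TdTomato+ libraries (Adcy1, Adcy7, Adcy8, Pde3a, Pde7b, Pde8b, Rgs4, Rgs5 and Rgs11), beside 9.39% of all genes, and for Adcy7 and Adcy8 in TdTomato- libraries, beside 5.86% of all genes. Several of these were at low counts, Adcy8 in TdTomato- libraries included (32 to 71 counts). The libraries of mice 3 and 4 gave the lowest values of 12 members and the highest of 7 among TdTomato+ libraries, beside 19.6% lowest and 19.6% highest over all genes. Among TdTomato- libraries the same mice gave the lowest values of 11 members and the highest of 5, beside 16.2% and 17.3% of all genes. These mice were singled out after the values had been seen, and the labels name nothing that sets them apart.

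In TdTomato+ libraries the mean of mice 3 and 4 against that of mice 2, 5 and 6 was 244 against 517 CPM for Adcy1, 22 against 44.9 CPM for Rgs4, 21.8 against 10.8 CPM for Adcy8 and 100 against 61.5 CPM for Pde1c. Adcy1 and Rgs4 were thus low where Adcy8 and Pde1c were high. The summed deep layer markers of the TdTomato+ libraries of mice 2 to 6 were 4315, 5547, 5296, 4666 and 4813 CPM, highest in mice 3 and 4. Tbr1, Sox5 and Bcl11b carried this order, whereas Fezf2 (516 and 514 CPM in mice 3 and 4, 579 to 682 CPM in the others) and Foxp2 (30.3 and 24.5 CPM, against 59.6 to 66.7 CPM) were lowest in these mice. Their part in the spread of these members was not tested.

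**Figure D4:**
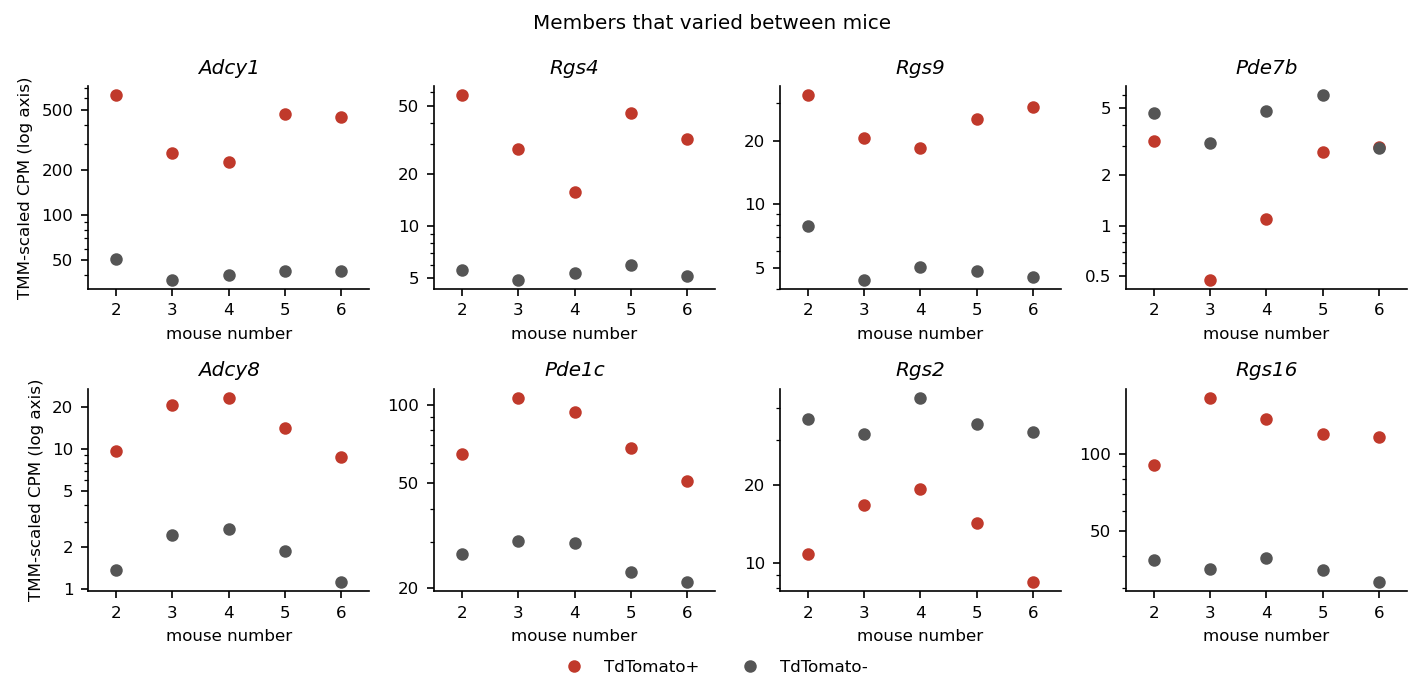
TMM-scaled CPM on log axes against mouse number for 8 members, TdTomato+ in red and TdTomato- in grey. In TdTomato+ libraries mice 3 and 4 are lowest for Adcy1, Rgs4, Rgs9 and Pde7b and highest for Adcy8, Pde1c, Rgs2 and Rgs16, and Adcy8 keeps the same order of mice in TdTomato- libraries.

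Upstream of these enzymes, 11 of 16 listed G protein alpha subunits were in the table, 6 higher and 3 lower. The counts of this and the following lists are to be read beside the 37.9% of all genes that were higher and the 39.4% that were lower at the same threshold, and no list was tested against them. Gnal, the olfactory and striatal stimulatory subunit that acts through Adcy5 in striatal neurons, was at 242 ± 56.7 CPM in TdTomato+ against 41.7 ± 8.27 CPM in TdTomato- cells, a log2FC of 2.53 (s.e. 0.08, adjusted p = 7.3e-09). Gnai2, an inhibitory subunit, was at 91.9 ± 4.86 against 339 ± 14.5 CPM, a log2FC of -1.88. Of the genes described here as known from striatal neurons, Adcy5, Pde10a, Rgs9 and Gnal were higher in TdTomato+ cells and Pde1b was lower, while the 12 subpallial and striatal markers summed to 50.1 to 74.4 CPM there against 1614 to 2011 CPM in TdTomato- cells. Of 4 beta subunits 3 were higher, led by Gnb4 at 1.45, and of 8 gamma subunits 4 were higher and 3 lower, with Gng8 at -1.78 and Gng5 at -1.43 on the log2FC scale. Gng8 was at 0.177 to 0.452 CPM in TdTomato+ libraries, under the limit of the table, so its direction was fixed.

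Downstream, the catalytic and regulatory subunits of protein kinase A and its inhibitors had 3 of 8 genes higher, near the share of all genes, and 0 lower. The neuronal regulatory subunits Prkar2b and Prkar1b led them, with log2FCs of 1.45 and 1.38. Of 6 other cAMP effectors 4 were higher and 1 lower, among them the exchange factor Rapgef4 at 1.74. Of 10 A-kinase anchoring proteins 7 were higher and 2 lower, with Akap12 at 1.00 and Akap13 at -1.02. Of 8 genes of the CREB group 1 was higher and 4 were lower, with Crtc1, a coactivator, at 0.81 and Atf1 at -1.29. Medians of the pathway lists ran from -0.70 for the cGMP genes described next to 0.57 for the other cAMP effectors, beside -0.01 over all genes.

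Of 7 genes of cGMP synthesis and effectors 2 were higher and 4 lower, beside the same 37.9% and 39.4% of all genes. Gucy1b2, a soluble guanylyl cyclase subunit, was at 0.0453 to 0.348 CPM in TdTomato+ against 8.34 to 12.9 CPM in TdTomato- libraries, a log2FC of -5.95 (s.e. 0.24, adjusted p = 3.4e-08). No TdTomato+ library reached 0.5 CPM, so this gene was in the table only through its TdTomato- values and had to be lower, and it is 1 of the 4. Prkg2, a cGMP-dependent kinase, had a log2FC of -1.57 (s.e. 0.39, adjusted p = 0.0048) from low counts, with groups that overlapped.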

How the data were processed

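Polyadenylated RNA of sorted TdTomato+ and TdTomato- cells was sequenced in 5 libraries each. The authors deposited raw counts per gene. They trimmed reads, aligned them to GRCm38 with STAR 2.4.2a, kept unique alignments and counted them by gene with the aligner's own option. The annotation release and the strand setting are not given in the sources used here, so genes that overlap another gene are uncertain. All deposited genes exceed 0.5 CPM in at least 5 libraries, and the lowest members by their fifth-largest CPM were Rgs11 (0.774), Rgs5 (1.05) and Adcy7 (1.1). Genes under that limit were not analysed here.

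Symbols, coordinates and exonic lengths came from GENCODE for GRCm38 and matched 14271 of 14300 genes. Counts were tested with edgeR 4.0.16 in R 4.3.3 (TMM, glmQLFit, glmQLFTest, prior count 0.125), with mouse number as a block because the study made paired comparisons. Same-numbered libraries deviated together, with correlations across genes of 0.186 to 0.316, beside -0.312 to 0.212 for other pairs. Genes were called at an adjusted p of 0.05 or less, with or without a log2 fold change of 2 or more in size. The s.e. is the size of the log2 fold change over the square root of F. Where nothing states separate litters, p-values measure only the spread between these libraries. A count of 3 corresponds to 0.104 to 0.136 CPM, counting error only.

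Members and lists were chosen with earlier results of these data known. Values in every library are given for members past both thresholds and for some others chosen after their values were seen. Of the pathway lists, up to 2 genes with the largest change are named. A gene that this covers is not reported here by name. The calculation was checked on simulated counts. Alternatives were other normalizations, filters and prior counts, DESeq2 1.42.0, TREAT, robust estimation, no block and each mouse left out. Promoter windows came from RefSeq.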

Additional observations from a re-analysis of the deposited data

Results flagged for a closer look

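Each member was examined in each population for a library far from the other 4, by Dixon's criterion (gap over range above 0.71 for 5 libraries). It marked 4 of 86 groups, and chance gives about 1 in 20, or 4.3. Pde1a in the TdTomato+ library of mouse 6 was lowest, at 25.3 CPM beside 43.5 to 52.1 in the others (gap over range 0.750). Rgs5 in the TdTomato- library of mouse 2 was lowest, at 0.977 CPM (25 counts) beside 1.84 to 1.99 (0.894). Rgs9 in the TdTomato- library of mouse 2 was highest, at 7.94 CPM beside 4.42 to 5.05 (0.773). Pde11a in the TdTomato- library of mouse 5 was lowest, at 0.396 CPM (10 counts) beside 0.553 to 0.627 (0.719). Without the mouse concerned, these members kept their direction and their call, with log2 fold changes over all mice left out of 3.03 to 3.27 for Pde1a, -1.52 to -0.98 for Rgs5, 2.13 to 2.32 for Rgs9 and 3.99 to 4.19 for Pde11a.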

How the results depend on the processing

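Of 601 log2 fold changes of the 43 members under the alternatives, 590 kept their direction and their side of the adjusted p threshold, 7 lost the call (Rgs19 in 5, Pde7a and Pde4dip in 1 each), 1 gained it (Pde8b) and 3 turned direction. The turned values were Adcy6 at -0.15 and Pde6d at -0.13 with library size alone as scaling, and Adcy6 at -0.01 without mouse 6 (-0.01 to 0.06 with each mouse left out), against 0.02 and 0.05. With library size alone, 2 adenylyl cyclases were lower at the adjusted p threshold rather than 1. TREAT, which tests for a log2 fold change beyond 1, called 1229 of all genes higher, 4 RGS genes lower, and 6 phosphodiesterases higher and 2 lower, against 457, 2, 2 and 0 with the cutoff of 2. The larger counts follow from its lower bound. Without the replicate block, 4 RGS genes, 2 adenylyl cyclases and 2 phosphodiesterases were past both thresholds upward, as with it, the all-gene counts were 461 and 1385, and 8 rather than 9 RGS genes were higher at the adjusted p threshold, Rgs19 being lost. The block changed no other member's call. With each mouse left out, all-gene counts past both thresholds were 446 to 468 higher and 1365 to 1403 lower. A filter at 1 CPM dropped Rgs11. Depth limits Rgs5, Rgs11, Adcy7, Pde8b and Pde2a, whose levels were a few CPM at most, and the mixture of cell types in TdTomato- cells cannot be told apart from regulation within a type.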
